A study of Drosophila melanogaster with 2 samples.

Results

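The genes described here are 10 components of the Notch signalling pathway, with the corepressor gene groucho (gro), taken out of the 13968 protein-coding genes annotated on the chromosome arms of Drosophila melanogaster: Delta (Dl), Serrate (Ser), neuralized (neur), Notch (N), kuzbanian (kuz), Suppressor of Hairless (Su(H)), mastermind (mam), Hairless (H), gro and E(spl)m8-HLH. They were chosen by name, and the rule uses no measured value. For each of them, every peak or ranked entry whose summit lay in the gene body or within 2 kb of it was taken from the deposited lists. The data are chromatin immunoprecipitation followed by sequencing (ChIP-seq) of castor (cas), a zinc finger transcription factor that acts late in the temporal series of embryonic neuroblasts. Whole embryos of the transgenic strain cas-GFP, aged 0 to 24 hours, were used, and the fusion protein, cas-eGFP, was precipitated with anti-GFP antibody from chromatin sonicated to 200 to 800 bp. There is 1 group, with 2 biological replicates, so no group is compared with another and no test was run. What drives the transgene, and how its level relates to that of the endogenous protein, is not given in the sources used here. Whole embryos mix all tissues and stages, so that strong binding in few cells and weak binding in many cannot be told apart, and the input or control library was not analysed here.

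Notch is a receptor that is activated by ligands on the neighbouring cell, Delta and Serrate, whose endocytosis depends on E3 ubiquitin ligases such as Neuralized. The metalloprotease Kuzbanian cuts the bound receptor and γ-secretase releases its intracellular domain, which joins the DNA-binding protein Su(H) and the coactivator Mastermind in the nucleus. Without the signal, Su(H) is held in a repressor complex by Hairless, which recruits Groucho and CtBP. Among the targets are the bHLH repressors of the E(spl) complex, such as E(spl)m8-HLH, which themselves act through Groucho. In the embryonic nervous system the pathway selects neuroblasts from the neuroectoderm and separates the fates of their daughter cells.

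Some sequences stand first because the values below refer to them. They were read from the RefSeq assembly Release 6, whose arms have the lengths of dm6, the build of the lists, and each runs 5′ to 3′ on the strand of its gene. The first 4 are the centres of called peaks of gro, neur and N, the fifth is the stretch at the start of N that was called in only some lists, and the last is the 250 bp before the start of E(spl)m8-HLH. Capitals in the peak centres mark the words searched for, which are given with the counts further on, and before E(spl)m8-HLH they mark the Su(H) site words alone. The Su(H) site words were CGTGGGAA, TGTGGGAA, CGTGAGAA and TGTGAGAA, and all words were searched on both strands.
gro internal start, chr3R:26042488-26042588, plus strand: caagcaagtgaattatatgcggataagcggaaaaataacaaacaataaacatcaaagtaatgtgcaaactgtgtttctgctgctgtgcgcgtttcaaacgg
gro start, chr3R:26041617-26041717, plus strand: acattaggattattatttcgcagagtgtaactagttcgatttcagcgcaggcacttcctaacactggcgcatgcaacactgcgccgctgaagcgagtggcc
neur intron, chr3R:9031957-9032057, minus strand: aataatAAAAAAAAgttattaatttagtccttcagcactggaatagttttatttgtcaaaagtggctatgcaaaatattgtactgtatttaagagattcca
N intron 5, chrX:3162453-3162553, plus strand: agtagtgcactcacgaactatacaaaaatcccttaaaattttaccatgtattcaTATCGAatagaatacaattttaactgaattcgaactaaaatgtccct
N start, chrX:3134787-3134869, plus strand: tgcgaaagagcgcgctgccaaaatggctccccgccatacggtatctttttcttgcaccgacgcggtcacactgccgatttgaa
E(spl)m8-HLH upstream, chr3R:26039990-26040239, plus strand: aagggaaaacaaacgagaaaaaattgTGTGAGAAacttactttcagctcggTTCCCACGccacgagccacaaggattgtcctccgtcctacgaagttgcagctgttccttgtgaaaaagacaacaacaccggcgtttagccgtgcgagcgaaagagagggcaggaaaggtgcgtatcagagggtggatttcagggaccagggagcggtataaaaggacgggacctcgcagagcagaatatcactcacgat

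Called peaks were found at 5 of the 10 genes: N, mam, neur, gro and E(spl)m8-HLH. None was found in any of the 4 thresholded lists at Dl, Ser, Su(H), H or kuz. The lists are the conservative and the pooled list, which both combine the replicates, and the list of each replicate alone; a thresholded list keeps only ranked entries with a −log10 irreproducible discovery rate (IDR) of at least 2, though not every such entry (1880 of 1951 in the conservative list), and the values end at 5. In the conservative list, which is the main one here, the same window held a summit at 20.1% of all protein-coding genes. The pooled list also gave 5 of 10, against 22.8% of all genes. The list of replicate 2 gave 5 of 10 against 14.4% of all genes, and that of replicate 1 gave 3 of 10 (neur, gro and E(spl)m8-HLH) against 14.3%.

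The counts depend on gene length and on shared windows. Of the 5 members of at least 20 kb, 2 had a conservative peak (N and mam), against 36.0% of all genes of that length. Of the 5 shorter members, 3 had one, against 18.9% of all shorter genes, and E(spl)m8-HLH and gro were counted for the same 2 peaks. The remaining shorter member with a peak, neur, is 19.12 kb long and so lies just under the limit. The 5 genes held 8 different conservative peaks. With 10 genes and shared peaks, the counts describe these genes and no more.

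**Figure D1:**
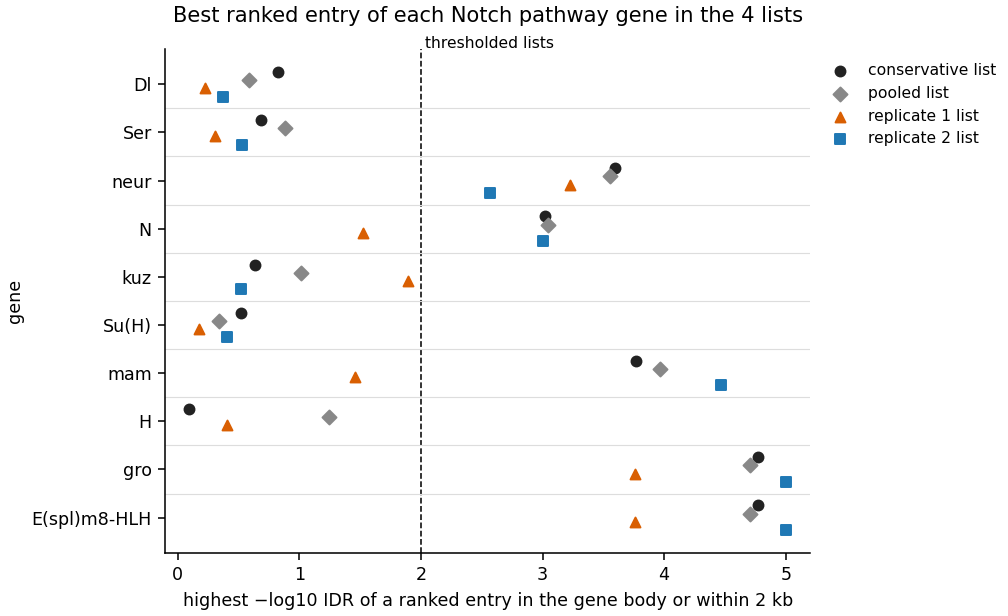
Highest −log10 IDR of any ranked entry in the body or within 2 kb of each gene (horizontal axis, no unit), with a symbol for each of the 4 lists and a dashed line at 2, where the thresholded lists begin. The values of gro and E(spl)m8-HLH are the same because they come from the same entry, N and mam lie beyond the line in every list but that of replicate 1, and H has no symbol for replicate 2 because that list holds no entry in its window.

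The ligand genes carried only entries under the threshold. Delta (chr3R:19302731-19326217, minus strand) held 19 conservative ranked entries with signals between 6.20 and 36.1, where signal is the authors' own value for a peak and is not scaled between lists. Its best −log10 IDR was 0.82 in the conservative list, 0.58 in the pooled list, 0.23 in replicate 1 and 0.38 in replicate 2, so all 4 values were far from 2. The strongest entry lay in an intron, 4128 bp inside the gene, and the entry at the start had a signal of 30.7 and a −log10 IDR of 0.60. Ser (chr3R:27172090-27194267, minus strand), the gene of the other ligand, was similar in level. It held 21 conservative entries with signals up to 34.1, and its best −log10 IDR was 0.69, 0.88, 0.31 and 0.53 in the conservative, pooled, replicate 1 and replicate 2 lists. The best conservative entry of Ser lay 74 bp inside its start. The median signal was 77.3 over conservative thresholded peaks and 16.5 over all conservative ranked entries. The strongest conservative entries of both ligand genes lay between these medians. Of all protein-coding genes, 37.2% had a best conservative −log10 IDR at least as high as Dl, and 40.9% as high as Ser. Among genes of at least 20 kb the shares were 63.9% and 70.1%.

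At neur (chr3R:9020348-9039471, minus strand), the gene of a ligase that acts on Delta, 1 peak was called in all 4 lists. This was the intronic peak at chr3R:9031852-9032161, with a conservative signal of 96.2 and a −log10 IDR of 3.59. The replicates gave signals of 50.5 and 43.2, with −log10 IDR values of 3.22 and 2.57. It lay in intron 1 of 2, 1724 bp downstream of an internal start of neur, and its centre, printed above, holds a run of A bases in capitals. A further conservative peak at chr3R:9038743-9039052 had a signal of 56.9 and a −log10 IDR of 2.36, but no thresholded list of a single replicate held it (signals 25.7 and 33.3, −log10 IDR 0.84 and 1.85). Its summit was 573 bp inside the start of neur and nearer, at 138 bp, to the start of the neighbouring gene hyx, a component of the Paf1 transcription elongation complex. In the pooled list an entry 191 bp upstream of the internal start of neur was called as well, with a signal of 53.9 and a −log10 IDR of 2.23. No other list called that site. Its −log10 IDR was 1.77 in the conservative list, 0.23 in replicate 2 and 0.09 in replicate 1, there at a summit 128 bp away. Next to it the pooled list also called an entry with a signal of only 2.56 and a −log10 IDR of 2.23. Both entries rest on the same matched pair in the ranked list, so the weaker is not a separate reproducible site.

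The receptor gene N (chrX:3134870-3172221, plus strand) had its conservative peaks far inside the gene. The stronger, at chrX:3162348-3162657 in intron 5 of 8, had a signal of 64.8 and a −log10 IDR of 3.02. The replicates gave nearly the same signal there, 37.9 and 35.7, with −log10 IDR values of 1.53 and 2.01. Its summit lay 27633 bp from the start of N, and the nearest start, 10637 bp away, was that of CG18508. The other peak, at chrX:3157273-3157582 in intron 4 of 8, had a signal of 56.2 and a −log10 IDR of 2.06, the lowest of the 8 conservative peaks of these genes. There the replicates gave 31.1 and 22.9, and neither called it (−log10 IDR 1.46 and 0.27).

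The start of N was called in the pooled list and in replicate 2 only. The pooled entry, at chrX:3134682-3134991 with its summit 33 bp upstream of the start, had a signal of 51.5 and a −log10 IDR of 2.31. In replicate 2 the signal was 46.6 with a −log10 IDR of 3.0, whereas in replicate 1 it was 7.75 with 0.13, and the conservative list gave a −log10 IDR of 0.09. On the log2 scale, replicate 1 was lower than replicate 2 by a difference of -2.59 at this site. The call at the start of N therefore rests on replicate 2.

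kuz (chr2L:13550139-13639411, plus strand), whose product makes the cut that precedes release of the Notch intracellular domain, is the longest of the 10 genes at 89.3 kb and had no called peak. Its 63 conservative entries reached a signal of 39.6 and a −log10 IDR of 0.63. The entry nearest to a call was in replicate 1, 87 bp inside the start of kuz, with a signal of 33.5 and a −log10 IDR of 1.89. Neither the conservative, the pooled nor the replicate 2 list held any entry within 500 bp of that start.

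**Figure D2:**
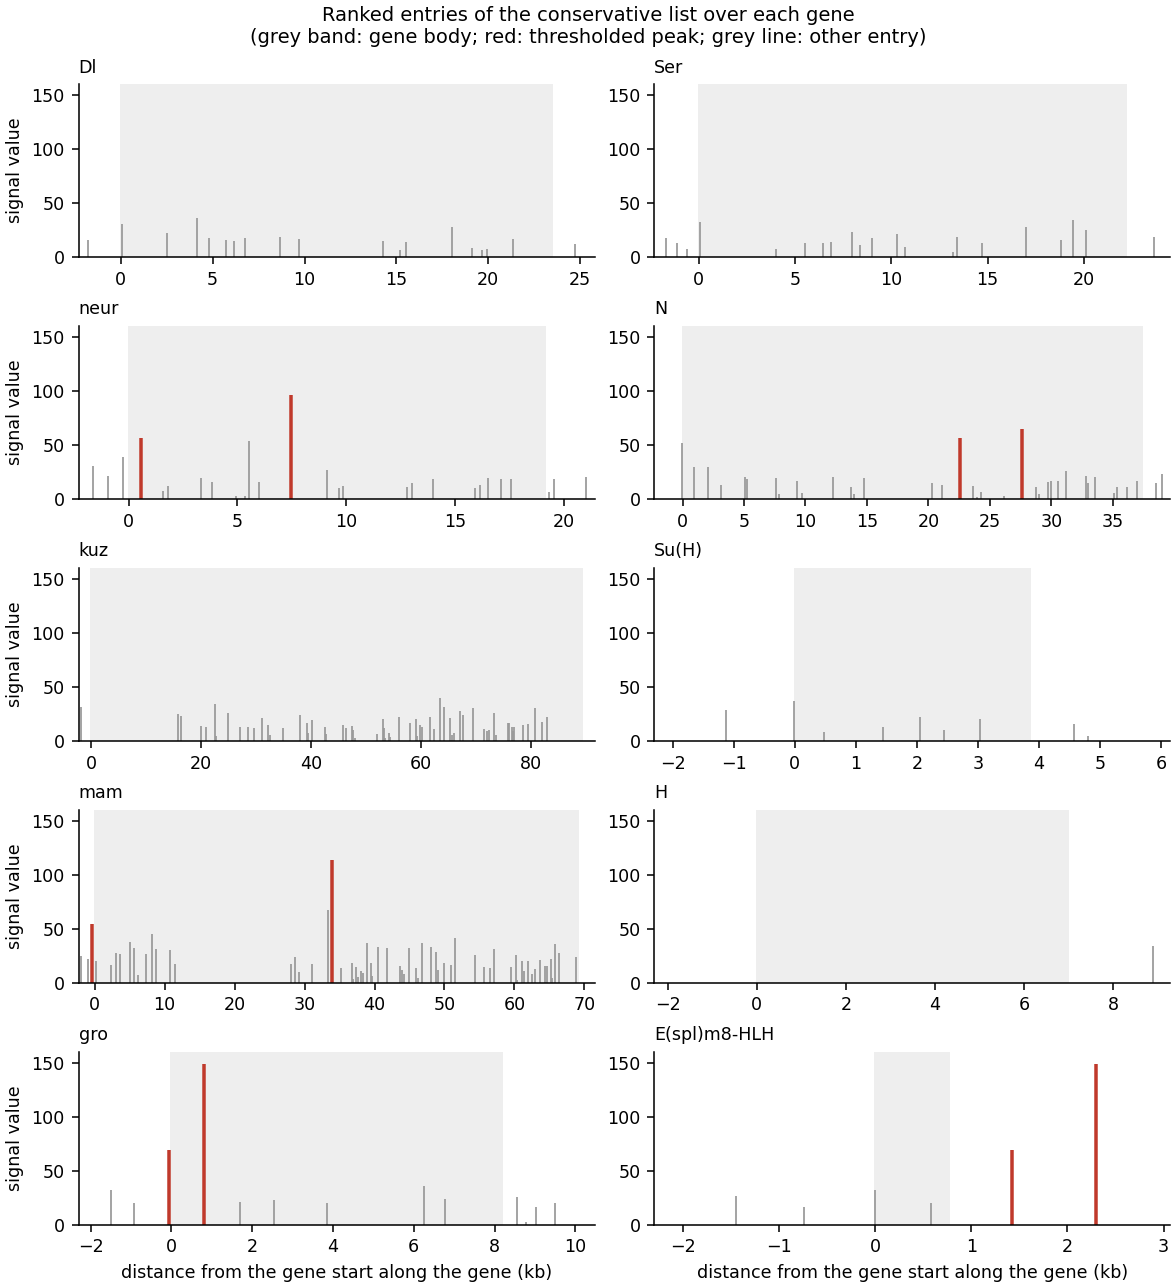
Signal value (vertical axis, no unit) of each conservative ranked entry by its distance from the gene start in kb (horizontal axis), with the gene body as a grey band, thresholded peaks as thick red lines and other entries as thin grey lines. The called peaks of N and neur and the stronger peak of mam lie inside the gene bodies, those of gro lie within 1 kb of its start, and those counted for E(spl)m8-HLH lie beyond its end. H has a single entry.

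Of the 3 members that act with or against the receptor in the nucleus, Su(H), mam and H, only mam had called peaks. Su(H) (chr2L:15039488-15043334, plus strand), the DNA-binding component, held 9 conservative entries. The strongest had a signal of 37.1 and a −log10 IDR of 0.52 and lay 8 bp upstream of its start. The best −log10 IDR of Su(H) was 0.34 in the pooled list, 0.18 in replicate 1 and 0.41 in replicate 2. In the list of all genes, 48.1% had a best conservative entry at least as high.

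The coactivator gene mam (chr2R:13991203-14060356, plus strand) ranked next after gro by −log10 IDR in both combined lists and in replicate 2, though not in replicate 1. Its main peak, at chr2R:14024994-14025303 in intron 3 of 6, had a conservative signal of 114 and a −log10 IDR of 3.77, which placed it at rank 465 of 1880. The replicates differed there: replicate 2 gave 72.1 with a −log10 IDR of 4.47, and replicate 1 gave 38.8 with 0.78. The summit was 3471 bp upstream of the start of CG18371 and 6514 bp upstream of the nearest start of mam. A weaker peak at chr2R:13990695-13991004, with a signal of 54.7 and a −log10 IDR of 2.16, lay between divergent genes, 353 bp upstream of mam and 143 bp upstream of RN-tre, which encodes a Rab GTPase-activating protein. Its signals were 24.4 in replicate 1 and 29.6 in replicate 2, and neither replicate called it. A pooled peak at chr2R:13999232-13999541 had a signal of 44.9, and replicate 2 called that site too (−log10 IDR 2.41). Replicate 2 alone called a further entry at chr2R:14024401-14024670, with a signal of 41.3. Both combined lists ranked that site at a signal of 67.1 without calling it (−log10 IDR 1.12 conservative, 1.67 pooled). Replicate 1 gave 16.7 there.

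H (chr3R:20621938-20628915, plus strand), the antagonist that holds Su(H) in its repressor complex, differed between the lists in how much was ranked at all. Its window held 1 conservative entry, 10 pooled entries, 7 in replicate 1 and 0 in replicate 2. The conservative entry had a signal of 34.4 and a −log10 IDR of 0.10, and it lay beyond the end of H in a coding exon of another gene. In replicate 2 no entry was ranked over 35.5 kb around H, and 61 stretches at least as long were found on the 5 large arms of that list. Of 635 genes with windows of 10 to 12 kb, 3.94% had no entry in replicate 2, and the median was 9. In the window of H the pooled list reached a −log10 IDR of 1.24, at the same entry beyond the end of H. Inside H the pooled list reached 0.55 and the list of replicate 1 reached 0.40. All were under 2.

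The strongest peak of the 10 genes was at gro (chr3R:26041736-26049911, plus strand), the corepressor on which both Hairless and the E(spl) proteins draw. At chr3R:26042467-26042565, 99 bp wide, the conservative signal was 149 and the −log10 IDR 4.77, at rank 267 of 1880. Replicate 1 gave 57.1 with 3.76 and replicate 2 gave 97.8 with the ceiling value of 5, and all 4 lists called it. Only 4.01% of all protein-coding genes had a best conservative entry as high. The summit lay in intron 1 of 12, 802 bp inside the gene and 103 bp upstream of an internal start of gro. The other gro peak, at chr3R:26041512-26041821, had its summit 69 bp upstream of the start of the gene, with a signal of 69.3 and a −log10 IDR of 2.76. It was called in the combined lists only, with signals of 31.6 and 35.8 and −log10 IDR values of 1.48 and 1.76 in replicates 1 and 2.

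E(spl)m8-HLH (chr3R:26040240-26041008, plus strand), a classic target of Su(H), owes its count to those same peaks of gro. Their summits lay 659 and 1530 bp beyond the end of E(spl)m8-HLH, and with gene bodies alone it had none. The entry at its own start had a signal of 32.6 and a −log10 IDR of 0.14 in the conservative list and 0.84 in the pooled list. In the replicates the signals at that start were 22.8 and 11.0.

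The neighbourhood of gro is the E(spl) complex, whose other genes encode bHLH repressors, Bearded family proteins and a protease inhibitor. Over the 52.3 kb from E(spl)mdelta-HLH to the end of gro, 4 conservative peaks were called, including the gro pair described above. That is a density of 0.0765 per kb where the arms as a whole had 0.0137. Replicate 1 had 1 peak there (0.0191 per kb, arms 0.0091) and replicate 2 had 2 (0.0382 per kb, arms 0.0083). Conservative entries of any rank were also denser there, at 1.15 per kb against 0.7605 along the arms and 0.8464 in all protein-coding windows. Besides the gro pair, a peak with a signal of 62.9 (−log10 IDR 2.58) lay 438 bp upstream of E(spl)m3-HLH, and the start of a noncoding RNA, lncRNA:CR43644, was nearer at 309 bp. A peak with a signal of 63.2 (−log10 IDR 2.79) lay 1767 bp upstream of E(spl)malpha-BFM. At the starts of the other E(spl) genes, the entries had signals between 13.4 (E(spl)m2-BFM) and 32.6 (E(spl)m8-HLH), and E(spl)m4-BFM had no conservative entry there.

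**Figure D3:**
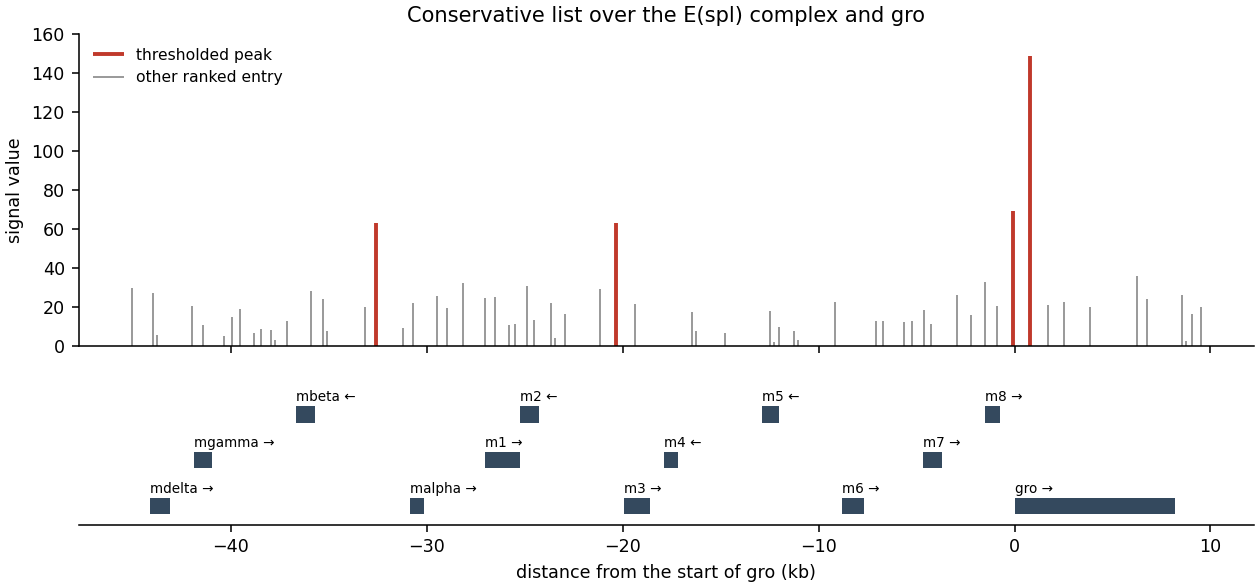
Signal value (vertical axis, no unit) of each conservative ranked entry over the E(spl) complex and gro, by distance from the start of gro in kb, with gene bodies and their strand (arrows) below. The gro pair, with signals of 149 and 69.3, stands at the right, and the peaks near E(spl)malpha-BFM and E(spl)m3-HLH, at 63.2 and 62.9, stand apart from the starts of the other genes.

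Of 42 further Notch pathway genes, 10 (23.8%) had a conservative peak, close to the 20.1% of all genes. Among 13 genes of ligand and receptor processing there were 4: rumi, a protein O-glucosyltransferase that modifies Notch (signal 83.3); kul, a metalloprotease related to kuz (680); aph-1, a subunit of γ-secretase (79.5); and Fur1, a furin protease (123). The peak counted for kul lay 106 bp upstream of the start of another gene, CIA30. Of 6 genes of trafficking and turnover, numb, an inhibitor of Notch that is segregated to a single daughter cell, had a signal of 124, and lgd, a regulator of endosomal sorting, had 324. Of 6 nuclear partners, nej, the CBP acetyltransferase, had a signal of 130, and kto, a Mediator kinase module subunit, had 50.998 at a summit 84 bp from the start of Papss. The 14 genes of the E(spl) and Brd families had the 2 peaks described above, and h, dpn and Hey had none in the conservative list. In the pooled list kto was not called, while skd, another Mediator kinase module subunit (−log10 IDR 2.66), and h, a bHLH repressor that recruits Groucho (2.14), were.

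Most peaks counted for the further genes lay outside the gene bodies, and with bodies alone only numb kept a conservative peak. Of the 10 members, 4 kept one with bodies alone: N, mam, neur and gro. Of the 10 further genes with a peak, 6 had the summit of the strongest peak within 500 bp of their own start, and for 8 of them the nearest protein-coding start was their own. Of the 8 peaks of the 10 pathway members, 4 lay within 500 bp of a start of any gene and 3 within 500 bp of a start of the member itself. For 5 of the 8 the nearest start belonged to another gene. By class, 4 of 8 were promoter peaks and 4 intronic. Of all 1879 conservative peaks on the arms, 62.1% were promoter, 26.6% intronic and 8.57% intergenic. These shares are not like for like, because member peaks were taken only from the windows of the members. Of the 317.1 kb in those windows, 280.3 kb was gene body, which leaves little room for intergenic peaks. No lean of the member peaks towards introns can be read from them.

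Entries of any rank were about as dense over the members as over other genes. The merged member windows held 258 conservative entries, which is 0.814 per kb, and the density was 0.846 in all protein-coding windows and 0.761 along whole arms. In replicate 1 the densities were 0.536 per kb over the members and 0.491 over all windows, and in replicate 2 they were 0.625 and 0.688, so the order of the pair was not the same in the replicates. In the conservative list single members ranged from 0.091 per kb at H to 1.26 per kb at E(spl)m8-HLH, and in replicate 2 from 0 at H to 1.15 at Su(H).

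No member summit held a Su(H) site word within 50 bp on either side, against 0.85% of all conservative summits and 0.99% of ranked entries under the threshold. Within 150 bp on either side, 1 of 8 held such a word, the intron 5 peak of N, against 2.45% of all conservative summits. Within 50 bp, TATCGA, the core of the DNA replication-related element, was found at 2 of 8, the intron 5 peak of N printed above and the neur peak next to hyx, against 9.53% of all conservative summits and 3.49% of the entries under the threshold. TTTTTT was found at 2 of 8, the intronic peaks of mam and neur, against 26.1% and 12.9%. GAGAG, a word of the GAGA factor, was found at 1 of 8, the intron 4 peak of N, against 10.4% and 12.9%. CAGGTA and CACGTG were found at 0 of 8, against 1.38% and 0.96% of all conservative summits. The 8 centres had a mean GC content of 33.2% ± 12.1 (SD, n = 8 peaks), against 35.3% ± 10.6 over all conservative peaks, and they ranged from 20.8% to 50.5%. The match of a word is a description of the sequence only.

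The stretch before E(spl)m8-HLH printed above holds 2 Su(H) site words, beginning 224 and 199 bp before the start. Of all protein-coding genes, 2.53% had at least 1 such word in the same 250 bp and 0.0788% had 2 or more. None of the other 9 members had any. Of the further genes, E(spl)m5-HLH, E(spl)m4-BFM and Ocho had 1 each, and none of these 3 had a conservative peak.

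The member peaks lay on both sides of equal signal values in the replicates. Signals are not scaled between lists, and the conservative list keeps entries by reproducibility, so some closeness is built in. Of the 1879 conservative peaks on the arms, 1766 had an entry within 150 bp in both replicates, and over these the log2 ratio (replicate 1 over replicate 2) was 0.01 at the median, with an SD of 0.50. All 8 member peaks were among them, with a median of -0.23 and a range from -0.89 to 0.44, 5 lower and 3 higher in replicate 1. The lowest was the intronic peak of mam, and 3.68% of all the peaks were as low. At the internal start of gro the ratio was -0.78 and at the intronic peak of neur it was 0.22.

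**Figure D4:**
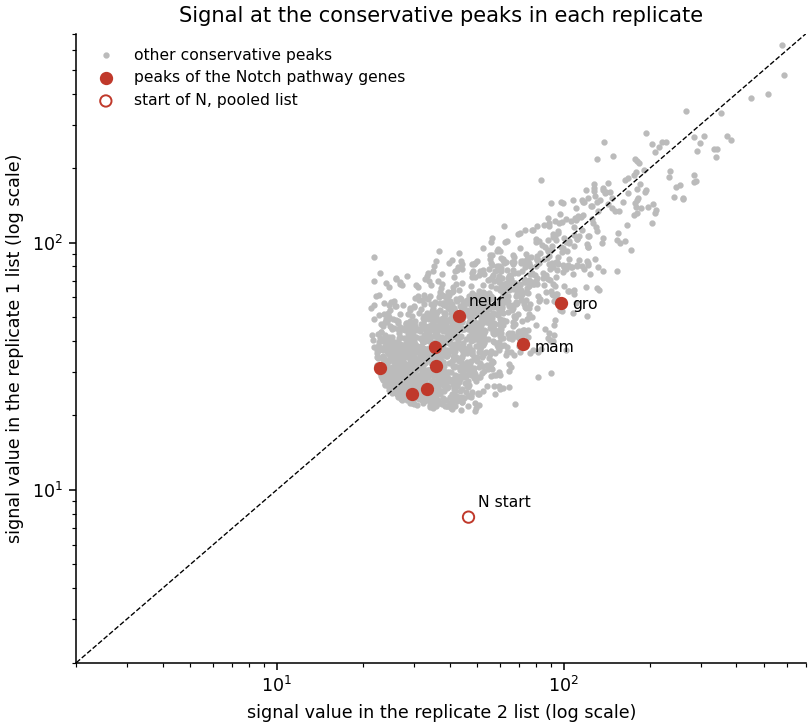
Signal value in the list of replicate 1 (vertical axis, log scale) against that in the list of replicate 2 (horizontal axis, log scale) at each conservative peak with an entry in both, with the 8 peaks of the pathway genes as filled red circles and the pooled peak at the start of N as an open circle. The dashed line marks equal signals. The intronic peak of mam (38.8 and 72.1) lies at the lower edge of the cloud, and the start of N (7.75 and 46.6) lies well below it.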

How the data were processed

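The material was whole-embryo ChIP-seq of cas-GFP in 1 group with 2 biological replicates, numbered as in the labels. Per the deposited README texts, the peak lists are on dm6 and hold peaks ranked or thresholded by irreproducible discovery rate (IDR), per replicate and for both replicates combined. How reads were aligned and with which program peaks were called is not given in the sources used here. Deposited signal values are the authors' own measure for each peak, used here only to describe and rank peaks. The −log10 IDR values of the ranked lists are the authors'. The lists hold no read totals: depth is unknown and no counting interval can be given.

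Positions were compared with Ensembl release 115 (BDGP6.54), in Python 3.11.15 with numpy 2.4.6 and pandas 2.3.3, and figures were drawn with matplotlib 3.10.9. Of the members, 9 were matched by symbol and 1, Dl, through another name (Delta), and so were 5 of the 42 further genes. Entries of 2 lists with summits within 150 bp were taken as the same site. A summit within 500 bp of a transcript start was called a promoter peak. The class assignment was tested on made-up positions with known answers. The 10 members, the 42 further genes and the words were chosen with earlier results of these data known, although no measured value enters the rule for the members. Named were all members, each further Notch gene with a conservative peak, the gene with the nearest start to each member peak, and genes within 2 kb of a conservative member summit; E(spl)m2-BFM, E(spl)m4-BFM, E(spl)m5-HLH, Ocho, h, dpn, Hey and skd were named after their values were seen. Nothing was tested: peaks, genes and entries are not replicates.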

Additional observations from a re-analysis of the deposited data

How the results depend on the processing

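Of 44 values recomputed under other settings, 27 stayed close to those reported and 17 moved. With single replicates, members with a peak ranged from 3 (without replicate 2, when N and mam were lost) to 5 (without replicate 1), the further Notch genes from 5 to 9 against 10, the strongest member signal from 57.1 to 97.8 against 149, and the member entry density from 0.536 to 0.625 per kb against 0.814. Signals are not scaled between lists. When each summit was given only to the nearest protein-coding start, 2 of 10 members remained, neur and gro, against 11.0% of all protein-coding genes. For the further genes, gene bodies alone gave 1 of 42 (numb), against 6.13% of all genes, and 5 kb on each side gave 19 of 42, against 29.3%. In the pooled lists the density was 1.01 per kb, and 7 of 12 member peaks lay at a start, against 4 of 8. Both neur entries that rest on the same matched pair are counted among the 12 and the 7. Any of the words searched was held by 3 of 8 summits within 25 bp on each side, against 5 within 50 bp, where 23.3% and 43.6% of all conservative summits did. At a −log10 IDR of at least 3 the same 5 members had a peak (12.2% of all genes), and in the upper 50% by signal (11.9%) N was lost. The cause was not tested where values moved. No paired analysis was possible because there is 1 group only. Unknown depth limits what a missing peak shows.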

Other observations

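Stretches without any ranked entry also occurred inside mam and at the end of kuz. At mam the conservative list held no entry from 11.5 to 28.1 kb downstream of the gene start, and replicate 2 held none from 11.5 to 28.6 kb. Replicate 1 ranked 5 entries within that stretch of replicate 2, and its own longest stretch at mam was 10.1 kb. At the end of kuz, which is 89.3 kb long, the conservative list held no entry from 82.96 to 115.4 kb downstream of the gene start, the pooled list none from 84.95 to 115.4 kb and replicate 2 none from 78.4 to 115.4 kb, so that most of each stretch lay beyond the gene. In replicate 2 that stretch, of 36.96 kb, was longer than the one at H. Around H, replicate 1 ranked 22 entries within the 35.5 kb that were empty in replicate 2, and the pooled list ranked 34. These are given as values only.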
